A study of Mus musculus with 12 samples.

Results

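The genes described here are 10 genes of epithelial cell contacts in mouse kidney: the claudins Cldn1, Cldn2, Cldn3, Cldn4 and Cldn7, the tight junction scaffold Tjp1, the cadherins Cdh1, Cdh2 and Cdh6, and the adhesion molecule Epcam. They were chosen by name, through the NCBI Gene number of each row, with earlier results of these data known. All 10 were present among the 27179 genes of the table. RNA had been sequenced from whole kidneys of 12 mice, 3 in each of 4 groups. Wild-type mice and mice labelled {Gamma}GT1-Cre;Fan1-/- (FAN1KO) received either saline or cisplatin, a platinum drug that crosslinks DNA, at 2 mg/kg by weekly injection for 5 weeks. Mice of both genotypes carried the strain label Mixed, were 8 to 12 weeks old, and differed within a treatment only by genotype as far as the labels state. The Ggt1 promoter drives Cre chiefly in proximal tubule cells, which limits the model to loss of Fan1, a nuclease gene of crosslink repair, where that Cre is active. The question was which of these contact genes differed between genotypes after repeated injury, and whether they also responded in wild-type kidneys.

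Tight junctions seal the space between epithelial cells, and the claudins in them set which ions and how much water pass along that route. Each stretch of the nephron carries its own claudins: Cldn2 forms a cation and water channel in the leaky proximal tubule, whereas Cldn3, Cldn4 and Cldn7 belong to the tighter distal nephron and collecting duct. Cadherins hold neighbouring cells together through calcium, and the kidney uses several of them, Cdh1 (E-cadherin) chiefly in distal segments and Cdh2 (N-cadherin) and Cdh6 (K-cadherin) chiefly in the proximal tubule and its precursors.

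Values are TPM, transcript levels corrected for gene length and library size, and folds are differences of log2(TPM + 1), which understate the change of low genes. Whole reads recovered from steps in the TPM numbered 37196407 to 82935965 per library. Fan1 itself was at 1.98 to 3.80 TPM in wild-type and 1.17 to 2.28 TPM in FAN1KO kidneys after saline, and at 2.33 to 3.57 and 1.55 to 3.51 TPM after cisplatin, so whole-kidney Fan1 RNA overlapped between genotypes and did not check the labels. In each group 1 library carried RNA of 4 Y-linked genes (replicate 3 of wild-type saline and of FAN1KO cisplatin, replicate 1 of the other two groups), and these libraries were also the low ones for most of the 10 genes, as described further on. The summed level of 8 proximal tubule markers was 1543 to 6428 TPM in the 12 libraries. One of them, Slc7a13, was at 1.23 to 6.68 TPM in the libraries without Y-linked RNA and at 161.6 to 794.8 TPM in those with it.

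FAN1KO kidneys had more RNA of 6 of the 10 genes than wild-type kidneys after cisplatin. Cldn4, Cldn3, Cldn7, Cldn1, Cdh2 and Cdh1 passed the test across all genes (limma with Benjamini-Hochberg adjustment, threshold 0.05), all of them higher, and none was called lower. Of all 14972 genes tested, 19.6% were called higher and 4.37% lower in this comparison. The median log2 fold change of the 10 genes was 1.54, beside 0.25 for all genes tested, and relative to that all-gene median the 6 called genes were higher by 0.50 (Cdh1) to 1.96 (Cldn4). When libraries were instead brought to a common median ratio, 1389 genes were called higher and 1155 lower in place of 2931 and 654, and the same 6 genes were called beside 9.28% of all genes. In whole kidneys, a change in the number of cells of a type and a change in RNA per cell cannot be told apart.

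**Figure D1:**
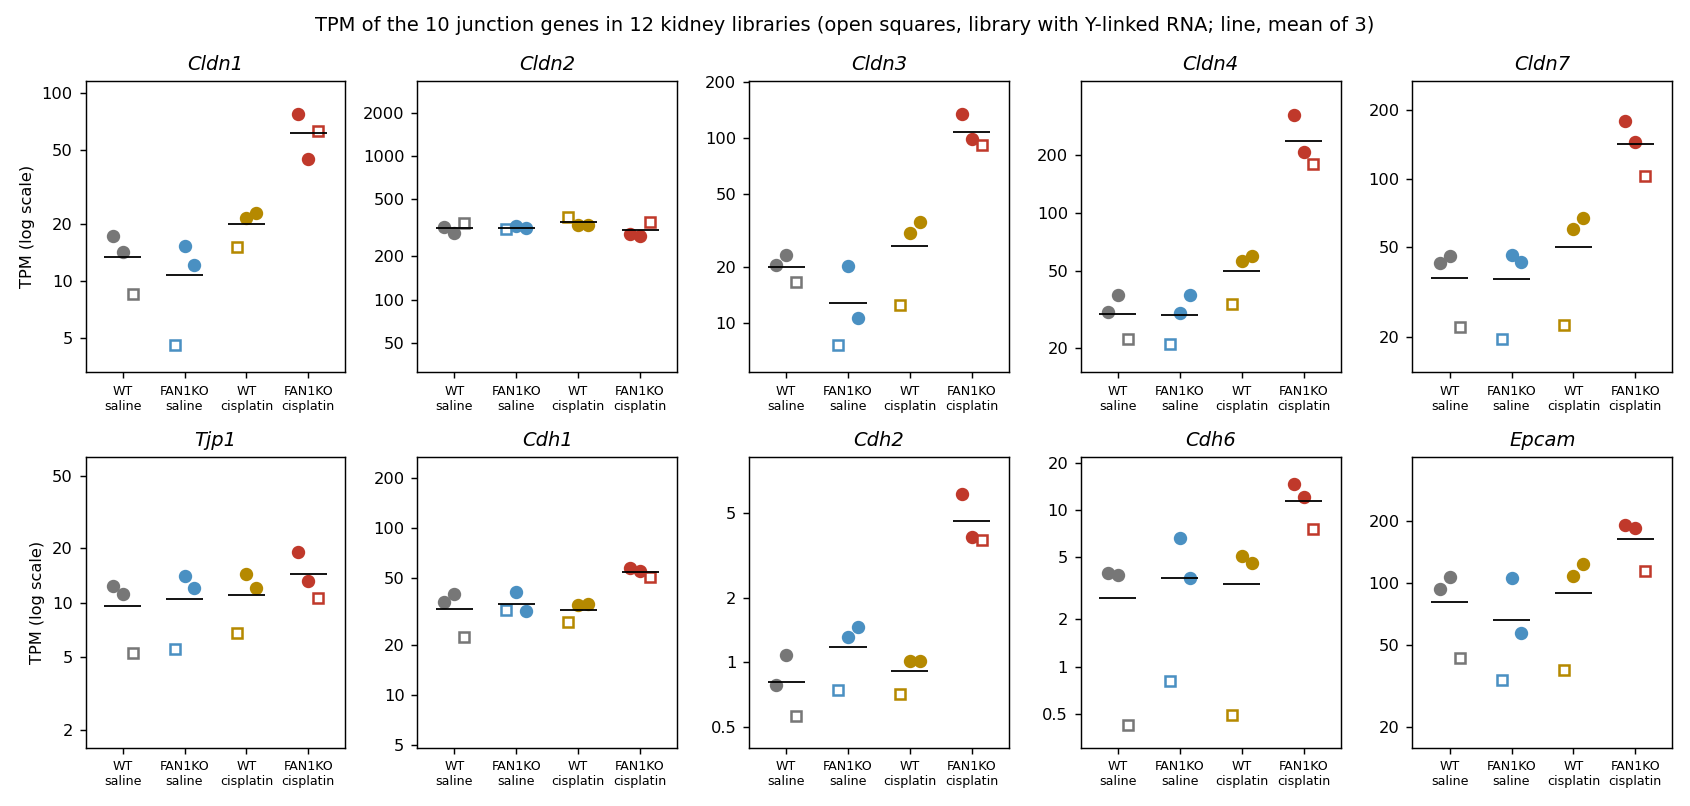
TPM of each of the 10 genes in the 12 libraries, on a log scale with its own range in each panel, by group on the horizontal axis (WT, wild-type). Filled circles are libraries without and open squares libraries with RNA of Y-linked genes, and lines are means of 3 mice. Cldn4 lies at 179.8 to 323.5 TPM in FAN1KO cisplatin kidneys and at 21.1 to 60.5 TPM in the other 9, while Cldn2 lies between 276 and 377 TPM in all 12.

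Cldn4 and Cldn3, a pair of sealing claudins of the distal nephron, had the largest log2 fold changes of TPM + 1 among the 10 genes. This order depends on the scale, which shrinks low genes: by limma's voom on recovered reads Cdh6 had 2.42 and Cdh2 2.28, against 2.22 for Cldn4 and 2.25 for Cldn3. Cldn4 was at 33.9, 56.8 and 60.5 TPM in wild-type cisplatin kidneys and at 323.5, 206.9 and 179.8 TPM in FAN1KO cisplatin kidneys. The groups did not overlap, and FAN1KO replicate 1 was the highest of all. The mean rose from 50.4 ± 14.4 to 236.8 ± 76.4 TPM (SD, n = 3 each), which on the log2 scale is 2.21 (SE 0.30, limma adjusted p 0.0013). Cldn3 was at 12.5, 30.5 and 35.0 TPM in wild-type and at 135.0, 98.3 and 90.9 TPM in FAN1KO cisplatin kidneys. Here too every FAN1KO kidney lay above every wild-type kidney, and the log2 fold change was 2.12 (SE 0.39, limma adjusted p 0.00477). With 3 mice against 3, the exact two-sided permutation test gave 0.1 for both genes, the smallest p it can give. In the RefSeq annotation Cldn3 overlaps Wbscr25, and whether reads were counted by strand is not given in the sources used here.

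Cldn3 and Cldn4 are neighbours on chromosome 5. Their start sites lie 39280 bases apart, at 134986214 on the plus strand for Cldn3 and at 134946934 on the minus strand for Cldn4, so they are transcribed away from each other. The 250 bases before each start are shown for this pair that moved together, beside those of Cldn2 and Epcam, which did not pass the test. RefSeq promoters of assembly GRCm38.p6 were searched for 8 of the 10 genes (9 start sites), and those of Cdh1 and Cdh2 were not searched. Each window is written 5′ to 3′ on the gene's own strand. Capitals mark CACCTG, searched on both strands (CAGGTG on the other), the E-box that Snail and Zeb repressors can bind in epithelial genes:
Cldn4 (chr5:134946935-134947184, minus strand): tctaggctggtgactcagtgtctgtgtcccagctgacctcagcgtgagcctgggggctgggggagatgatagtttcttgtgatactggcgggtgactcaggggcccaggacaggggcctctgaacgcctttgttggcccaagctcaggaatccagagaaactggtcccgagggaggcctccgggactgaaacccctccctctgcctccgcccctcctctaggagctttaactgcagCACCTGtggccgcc
Cldn3 (chr5:134985964-134986213, plus strand): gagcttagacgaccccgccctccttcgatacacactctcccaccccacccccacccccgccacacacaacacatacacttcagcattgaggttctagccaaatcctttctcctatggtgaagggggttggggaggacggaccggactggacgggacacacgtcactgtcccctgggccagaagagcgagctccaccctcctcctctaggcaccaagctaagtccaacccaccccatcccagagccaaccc
Cldn2 (chrX:139800558-139800807, plus strand): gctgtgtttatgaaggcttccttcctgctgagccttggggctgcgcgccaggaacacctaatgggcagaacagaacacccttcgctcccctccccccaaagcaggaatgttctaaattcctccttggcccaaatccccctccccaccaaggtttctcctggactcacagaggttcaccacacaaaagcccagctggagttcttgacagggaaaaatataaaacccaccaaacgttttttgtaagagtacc
Epcam (chr17:87635729-87635978, plus strand): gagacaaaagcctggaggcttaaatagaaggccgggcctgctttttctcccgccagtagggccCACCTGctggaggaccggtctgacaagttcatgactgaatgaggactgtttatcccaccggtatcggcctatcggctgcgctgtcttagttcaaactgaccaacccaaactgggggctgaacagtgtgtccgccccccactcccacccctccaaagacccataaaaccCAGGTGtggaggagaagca

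The Cldn4 window held CACCTG once, 14 bases before the start, and the Epcam window held it at 187 and 19 bases before the start. The second start site of Cldn7 had it at 97 and 57 bases before the start, while the windows of Cldn1, Cldn2, Cldn3, Tjp1, Cdh6 and the first start of Cldn7 had none. Of 32851 mouse promoter windows of this length, 17.2% held the motif. Neither AACNGGTT, a Grainyhead-like motif in 1.79% of windows, nor the HNF1 motif, found in 3 windows, occurred in any window of these genes. The motifs do not overlap each other in the windows shown.

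Cldn7 and Cldn1 rose as well. Cldn7, which lies along the sides of collecting duct and distal tubule cells, was at 22.7, 60.1 and 67.0 TPM in wild-type and at 179.8, 145.3 and 103.2 TPM in FAN1KO cisplatin kidneys. The groups did not overlap and the log2 fold change was 1.60 (SE 0.45, limma adjusted p 0.0291). Cldn1, a barrier claudin best known from epidermis and, in the kidney, from the parietal cells of Bowman's capsule, was at 15.2, 21.8 and 23.0 TPM in wild-type and at 77.0, 44.3 and 63.1 TPM in FAN1KO cisplatin kidneys. Again no value overlapped, with a log2 fold change of 1.56 (SE 0.39, limma adjusted p 0.0177). Both calls were lost when either wild-type cisplatin replicate 1 or FAN1KO cisplatin replicate 1 was left out, and that of Cldn7 also without FAN1KO cisplatin replicate 2, with adjusted p up to 0.115 for Cldn7 and 0.0795 for Cldn1, while Cldn3 and Cldn4 kept theirs without any 1 library of the comparison. The Cldn7 call was also lost with only the libraries of the comparison in the fit (adjusted p 0.0506).

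Cldn2, the proximal tubule channel, was the 1 claudin of the 5 that did not pass the test. It was at 376.7, 328.8 and 330.7 TPM in wild-type cisplatin and at 285.6, 276.1 and 349.0 TPM in FAN1KO cisplatin kidneys. The groups overlapped, and the log2 fold change was -0.19 with a 95% interval of -0.43 to 0.05 (limma adjusted p 0.23). Relative to the median of all genes the value was -0.44. In the 12 libraries Cldn2 varied least of the 10 genes, with a root mean square deviation of 0.12 on the log2 scale against 1.25 for Cldn4. Its level was close to that of saline kidneys, which had 317 ± 25.2 TPM in wild-type and 316.8 ± 7.42 TPM in FAN1KO mice. The proximal tubule marker list went down between genotypes under cisplatin: 6 of 8 markers were called lower, beside 4.37% of all genes. Their summed levels were 4170 to 5802 TPM in wild-type and 1543 to 3080 TPM in FAN1KO cisplatin kidneys. The upper end of each range is the library with Y-linked RNA, where Slc7a13 was at 794.8 and 161.6 TPM. The part of the lower marker levels in the level of Cldn2 was not tested.

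The make-up of claudin RNA in FAN1KO cisplatin kidneys stood apart from that of the other 9 kidneys. Taken over the 21 claudins listed, the summed level after saline was 790.2 ± 20.5 TPM in wild-type and 795.4 ± 90.9 TPM in FAN1KO kidneys (SD, n = 3 each), and after cisplatin it was 897.5 ± 48.6 and 1210 ± 131 TPM. Cldn2 made up 40.1%, 40.1% and 38.6% of it in these first 3 groups and 25.4% in the last, while Cldn4 went from 3.84%, 3.74% and 5.60% to 19.3%. Cldn3, Cldn4, Cldn7 and Cldn1 held 8.87%, 19.3%, 11.7% and 5.04% of claudin RNA in FAN1KO cisplatin kidneys, against 2.88%, 5.60%, 5.53% and 2.22% in wild-type cisplatin kidneys. The ratio of Cldn4 to Cldn2, a distal claudin over a proximal one, was 0.0655 to 0.183 in the other 9 kidneys and 1.13, 0.750 and 0.515 in FAN1KO cisplatin kidneys. In FAN1KO cisplatin replicate 1, Cldn4 RNA thus exceeded Cldn2 RNA. The other large component was Cldn10, a channel-forming claudin of the proximal tubule and thick ascending limb, with 27.5%, 29.3% and 28.6% in the first 3 groups and 10.6% in FAN1KO cisplatin kidneys. These shares do not depend on scaling between libraries and are given as a description, without a test.

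**Figure D2:**
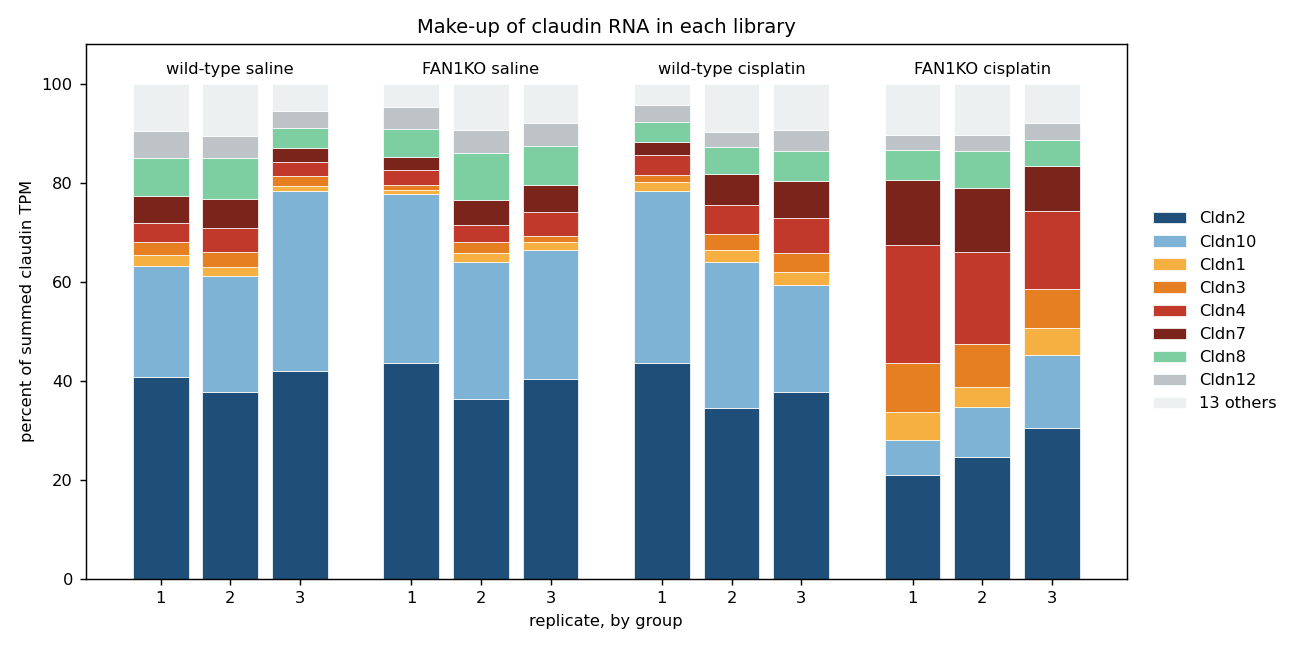
Each bar is 1 library, by replicate within its group, and shows each claudin as a percent of the summed TPM of all 21 claudins listed. Cldn2 and Cldn10 (blue) together fill most of each bar in 9 libraries, and Cldn1, Cldn3, Cldn4 and Cldn7 (yellow to dark red) widen in the 3 FAN1KO cisplatin kidneys, where Cldn4 holds 15.7% to 23.8%.

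Of the 3 cadherins, Cdh1 and Cdh2 passed the test and Cdh6 did not. Cdh1, the classical epithelial cadherin, was at 27.4, 34.8 and 35.3 TPM in wild-type and at 58.0, 55.4 and 50.8 TPM in FAN1KO cisplatin kidneys. The groups did not overlap, and the mean went from 32.5 ± 4.42 to 54.7 ± 3.64 TPM (SD, n = 3 each), or 0.74 on the log2 scale (SE 0.20, limma adjusted p 0.0243). Its call was lost when mitochondrially encoded genes were left out (adjusted p 0.0546) and without any of wild-type cisplatin replicate 1, FAN1KO cisplatin replicate 1 and FAN1KO cisplatin replicate 2 (adjusted p up to 0.0905). Cdh2, the cadherin of neurons, mesenchyme and proximal tubule, was low, at 0.713, 1.01 and 1.01 TPM in wild-type and at 6.07, 3.85 and 3.71 TPM in FAN1KO cisplatin kidneys. All 3 FAN1KO kidneys stood above every other kidney of the series, where the highest value was 1.46 TPM. The ratio of means was 4.98 and the log2 fold change 1.51 (SE 0.21, limma adjusted p 0.00139), which grew to 2.28 by limma's voom on the recovered reads, since adding 1 to such low values shrinks the fold. The Cdh2 values rest on 98 to 590 reads per library. Cdh2 kept its call without any 1 library of the comparison.

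Cdh6, a cadherin of the developing nephron and proximal tubule, was at 0.494, 5.06 and 4.60 TPM in wild-type and at 14.6, 12.1 and 7.53 TPM in FAN1KO cisplatin kidneys. The groups did not overlap, but wild-type cisplatin replicate 1 lay far below the other replicates of its group. The log2 fold change was 1.70 (SE 0.69, 95% interval 0.18 to 3.22) and did not pass the test (limma adjusted p 0.0964). Cdh6 rests on as few as 44 reads in a library, and it overlaps Gm35018 and Gm46513 in the annotation. With Cdh6 counted, 7 of the 10 genes were higher in every FAN1KO kidney than in every wild-type kidney after cisplatin, beside 35.7% of all genes tested.

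The balance of cadherins shifted accordingly. The ratio of Cdh1 to Cdh2 was 21.9 to 46.0 in the other 9 kidneys and 9.55, 14.4 and 13.7 in FAN1KO cisplatin kidneys, so both cadherins had more RNA there and Cdh2 had the larger relative gain. Most cadherin RNA belonged to Cdh16, the kidney-specific cadherin of tubule epithelium. It held 93.3% of the sum of Cdh1, Cdh2, Cdh6 and Cdh16 in wild-type cisplatin and 89.4% in FAN1KO cisplatin kidneys, while the share of Cdh2 was 0.167% and 0.685%. Even after cisplatin in FAN1KO mice, Cdh2 thus remained a small part of cadherin RNA.

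Epcam and Tjp1 were not called on this model, and Epcam was with a Y-linked covariate, as given further on. Epcam, which binds Cldn7 and marks epithelia other than most of the proximal tubule, was at 38.0, 107.3 and 123.7 TPM in wild-type and at 190.8, 184.6 and 114.1 TPM in FAN1KO cisplatin kidneys. The groups overlapped because FAN1KO replicate 3 lay below wild-type replicate 3, and the log2 fold change was 0.99 with a 95% interval of -0.17 to 2.14 (limma adjusted p 0.19). The ratio of Cldn7 to Epcam was 0.542 to 0.598 in wild-type and 0.787 to 0.942 in FAN1KO cisplatin kidneys. After saline it was 0.427 to 0.511 in wild-type and 0.433 to 0.7455 in FAN1KO kidneys, so the gap is narrower over the series. Tjp1, which encodes the ZO-1 scaffold that ties claudins to actin, was at 6.76, 14.4 and 12.0 TPM in wild-type and at 19.1, 13.2 and 10.6 TPM in FAN1KO cisplatin kidneys. These overlapped widely, with a log2 fold change of 0.36 and a 95% interval of -0.51 to 1.24 (limma adjusted p 0.535). Both intervals reach past 1 on the log2 scale, so similar levels were not shown for either gene.

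Cisplatin against saline within FAN1KO mice called the same 6 genes, all higher, beside 34.9% of all genes called higher and 39.8% in either direction. This comparison and the previous one share the 3 FAN1KO cisplatin kidneys, so neither is a repeat of the other. Cldn4 was at 21.1, 30.5 and 37.9 TPM after saline and at 179.8 to 323.5 TPM after cisplatin, a rise of 2.94 on the log2 scale (SE 0.30, limma adjusted p 0.000165). Cldn3 was at 7.62, 20.3 and 10.7 TPM after saline and rose by 3.06 (adjusted p 0.000424), the largest log2 fold change of TPM + 1 among the 10 genes. Cldn1 rose by 2.51 (adjusted p 0.00103) from 4.61, 15.4 and 12.2 TPM, and Cldn7 by 2.01 (adjusted p 0.00657) from 19.7, 45.9 and 42.7 TPM. Among the cadherins, Cdh2 rose by 1.34 (adjusted p 0.00115) from 0.744, 1.32 and 1.46 TPM. Cdh1 rose by 0.63 (adjusted p 0.0305) from 32.2, 41.6 and 32.0 TPM, a call that was lost with median-ratio scaling (log2 fold change 0.20, adjusted p 0.295) and when any 1 of FAN1KO saline replicates 1 and 3 and FAN1KO cisplatin replicates 1 and 2 was left out (adjusted p up to 0.098). The other 4 genes gave log2 fold changes of 1.59 for Cdh6 (adjusted p 0.0888), 1.41 for Epcam (adjusted p 0.0524), 0.46 for Tjp1 (adjusted p 0.379) and -0.07 for Cldn2 (adjusted p 0.645). In 8 of the 10 genes, all but Cldn2 and Tjp1, every cisplatin kidney was above every saline kidney, beside 47.4% of all genes. The median of all genes in this comparison was 0.37.

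In wild-type mice none of the 10 genes was called between cisplatin and saline by limma, beside 0.0601% of all genes in either direction. All 10 log2 fold changes were above 0, with a median of 0.20 beside 0.08 for all genes. Cldn4 came closest, at 30.8, 37.7 and 22.3 TPM after saline and 33.9, 56.8 and 60.5 TPM after cisplatin, with overlapping groups, a log2 fold change of 0.71 and an unadjusted p of 0.0413 (adjusted p 1.0), the 1 unadjusted p under 0.05 among the 10. Of all 14972 genes, 67 were lower and 382 higher at an unadjusted limma p under 0.05. Between genotypes under saline none of the 10 was called either, beside 0.768% of all genes. There the lowest unadjusted p was 0.102 for Cldn3, at 20.5, 23.4 and 16.6 TPM in wild-type and 7.62, 20.3 and 10.7 TPM in FAN1KO kidneys, and in none of the 10 did the groups separate, beside 12.5% of all genes. limma's voom on the recovered reads also called 0 of 10 between treatments in wild-type mice and between saline genotypes, beside 0.0668% and 0.621% of all genes in either direction.

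**Figure D3:**
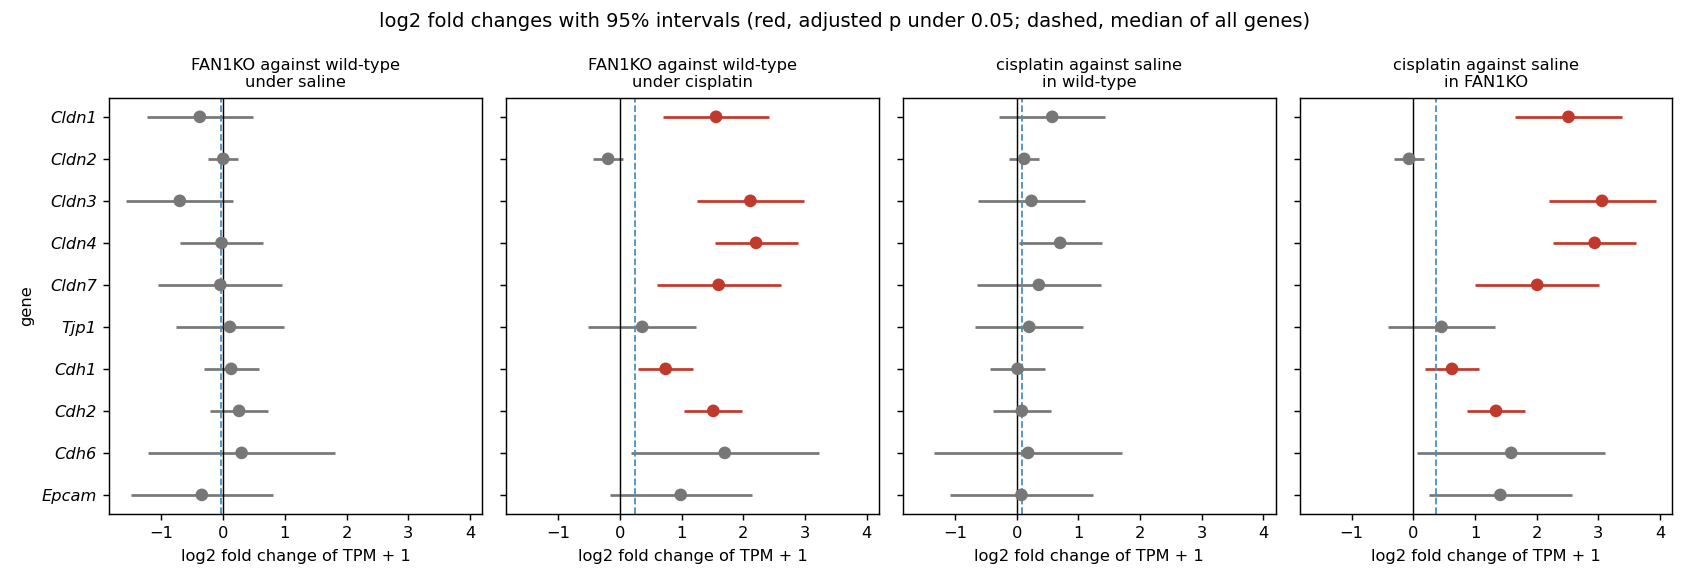
log2 fold changes of TPM + 1 (horizontal axis) with 95% intervals for the 10 genes in 4 comparisons, red where the adjusted p was under 0.05, with the median of all genes dashed. The same 6 genes are red in both comparisons that include the FAN1KO cisplatin kidneys, and none is red between saline genotypes or between treatments in wild-type mice.

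Whether cisplatin acted differently in the 2 genotypes was tested by the genotype by treatment interaction. Cldn3, Cldn4 and Cdh2 were called, beside 5.22% of all genes called higher and 6.24% in either direction. The log2 response to cisplatin was larger in FAN1KO than in wild-type mice by 2.82 for Cldn3 (SE 0.55, limma adjusted p 0.0206), by 2.23 for Cldn4 (SE 0.43, adjusted p 0.0196) and by 1.25 for Cdh2 (SE 0.30, adjusted p 0.0392), beside a median of 0.28 for all genes. Cldn1 had 1.94 (adjusted p 0.0624) and Cldn7 1.65 (adjusted p 0.142), neither past the threshold. The count of 3 rested on single libraries. It fell to 0 without wild-type saline replicate 1, and to 1 (Cldn4) without wild-type saline replicate 2 or FAN1KO cisplatin replicate 1. Over all 14972 genes, higher calls fell as well in these fits, from 782 to 217, 294 and 218 in that order. The Cdh2 call was also lost in 4 of 9 alternatives (adjusted p up to 0.0745) and without any 1 of 10 of the 12 libraries (adjusted p up to 0.097).

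The libraries with Y-linked RNA bear on all of these values. The study used mice of both sexes, and in each group the 1 library with Y-linked RNA was the lowest of the 3 for 7 of the 10 genes, and in 3 of the 4 groups for another 2. Cldn2 was lowest there in 1 group. Cdh6 was the clearest case: 0.425, 0.807 and 0.494 TPM in the libraries with Y-linked RNA of the first 3 groups and 7.53 TPM in that of FAN1KO cisplatin, against 3.68 to 6.58 TPM in the libraries without it and 12.1 and 14.6 TPM in FAN1KO cisplatin kidneys. Epcam was at 34.0 to 43.3 TPM and then 114.1 TPM with Y-linked RNA, and at 57.3 to 123.7 TPM and then 184.6 and 190.8 TPM without it. Compared within each kind of library in this way, 8 of the 10 genes were higher in FAN1KO cisplatin kidneys than in every kidney of the other 3 groups, all but Cldn2 and Tjp1, beside 42.3% of all genes tested. With the 4 libraries left out, an alternative added after the data were seen, 7 of the 10 were called between genotypes under cisplatin, Cdh6 joining with a log2 fold change of 1.29 (adjusted p 0.00582), beside 28.9% of all genes called higher. The interaction then called 6 (Cldn1, Cldn3, Cldn4, Cldn7, Cdh1 and Cdh2), beside 13.4% of all genes. The other treatment comparison in FAN1KO mice called 8, beside 44.4%. With 2 libraries a group these fits rest on few mice. With all 12 libraries and Y-linked RNA as a covariate, 8 of the 10 were called higher between genotypes under cisplatin, Cdh6 (adjusted p 0.000629) and Epcam (adjusted p 0.00397) among them, beside 40.3% of all genes. For cisplatin in FAN1KO mice 9 were then called, Tjp1 (adjusted p 0.0253) among them, beside 52.9%, and for the interaction 8, beside 27.3%.

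The other claudins did not move as a family. Of 17 looked for, 16 were listed and 11 had enough RNA to be tested between genotypes under cisplatin. Cldn6, Cldn19 and Cldn10 were called, 2 higher and 1 lower, beside 19.6% and 4.37% of all genes. The list's median log2 fold change was 0.27, beside 0.25 for all genes. Cldn6, a claudin of embryonic epithelia, was at 3.30, 2.89 and 1.84 TPM in wild-type and at 14.0, 12.2 and 13.2 TPM in FAN1KO cisplatin kidneys, a rise of 1.96 on the log2 scale (SE 0.19, limma adjusted p 0.000265). Cldn10 was at 301.0, 281.9 and 187.4 TPM in wild-type and fell to 94.7, 114.1 and 168.7 TPM, with a log2 fold change of -1.04 and an SE of 0.26 (limma adjusted p 0.0184). Cldn19, which with Cldn16 carries magnesium and calcium in the thick ascending limb, was at 4.98, 14.9 and 13.8 TPM and rose to 31.2, 32.7 and 24.0 TPM (log2 fold change 1.42, adjusted p 0.0447), a call lost in 4 of 10 alternatives.

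Among 24 other tight junction genes 5 were called higher and 1 lower, with a median of 0.38. For this list and those that follow, 19.6% of all genes were called higher and 4.37% lower, beside a median of 0.25. Lsr, the angulin of tricellular contacts, rose by 1.13 (limma adjusted p 0.000381), from 16.4, 19.8 and 20.9 to 44.8, 40.4 and 43.1 TPM. Ybx3, a transcription factor that ZO-1 binds, rose by 0.75 (adjusted p 0.0184) and Prkci, an atypical kinase of the polarity complex, by 0.71 (adjusted p 0.0237), a call lost without mitochondrially encoded genes (adjusted p 0.0536). Prkcz, the other atypical kinase of the list, was the gene called lower, at 34.0, 25.7 and 30.1 TPM in wild-type and 16.6, 19.8 and 21.5 TPM in FAN1KO cisplatin kidneys (log2 fold change -0.61, adjusted p 0.0138). Marveld2, tricellulin, was called higher by 0.63 (adjusted p 0.0443). Of 16 adherens junction genes 4 were called, all higher, with a median of 0.33: Cdh3 (P-cadherin) rose by 1.72 (adjusted p 0.00621), Nectin2 by 0.98 (adjusted p 0.0172), Nectin4 by 0.87 (adjusted p 0.0393) and the actin linker Vcl by 0.75 (adjusted p 0.0341). Nectin4 lost its call in 5 of 10 alternatives (adjusted p up to 0.076) and Vcl in 3 (up to 0.0675). Cdh3 went from 2.41, 5.75 and 5.64 to 23.7, 14.7 and 12.9 TPM without overlap.

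Of 8 desmosome genes tested 5 were called, all higher, beside 19.6% of all genes, and the median was 0.68. Ppl, the plakin periplakin, rose by 2.34 (limma adjusted p 0.007), from 1.02, 4.09 and 3.87 to 22.4, 20.0 and 12.3 TPM. Dsp, desmoplakin, rose by 1.07 (adjusted p 0.0397), Pkp2, a plakophilin, by 0.70 (adjusted p 0.0025) and Perp, a desmosomal membrane protein and p53 target, by 0.68 (adjusted p 0.000877), the last not past the threshold with median-ratio scaling. Pkp3, another plakophilin, was called higher by 0.56 (adjusted p 0.00462). Of 12 regulators of epithelial junction genes 2 were called, both higher, beside 19.6% of all genes. The median was 0.02, beside 0.25 for all genes. The 2 were the epithelial ETS factors Ehf, at 1.26 (adjusted p 0.0392), and Elf3, at 1.06 (adjusted p 0.0483). The Elf3 call was lost in 6 of 10 alternatives. Dsp and Ehf each lost their call in 3 of 10 (adjusted p up to 0.0697 and 0.0661). The repressors Snai1, Snai2, Zeb1, Zeb2 and Twist1 were not called, with log2 fold changes of -0.19, -0.62, -0.10, 0.14 and -0.20. Snai2 was at 0.529, 4.36 and 2.33 TPM in wild-type and 1.19, 0.796 and 0.896 TPM in FAN1KO cisplatin kidneys, which overlapped. Prkcz, Marveld2 and Pkp3 were named after their values were seen and were not refitted without single libraries. Of the other called genes named from these lists, Cldn6, Lsr, Cdh3, Ppl, Pkp2 and Perp kept their call without any 1 library of the comparison. The other 10 lost it at least without wild-type cisplatin replicate 1 and without FAN1KO cisplatin replicate 1, with adjusted p up to 0.157 (Cldn19).

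**Figure D4:**
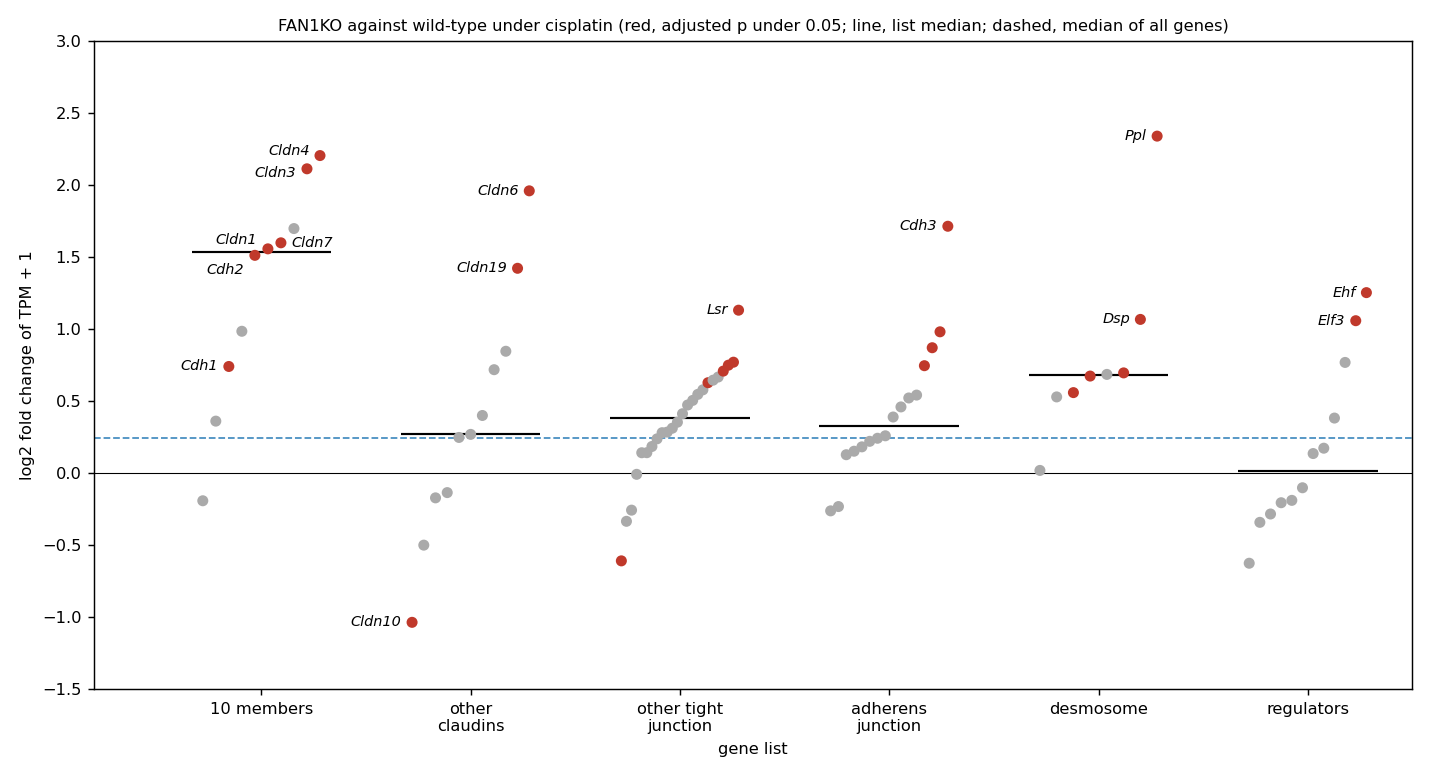
log2 fold change of TPM + 1 between genotypes under cisplatin, FAN1KO over wild-type (vertical axis), for the 10 genes and 5 lists of related genes. Each point is a gene, red where the adjusted p was under 0.05, and red points are named where they belong to the 10 genes or lie past 1 in size on the log2 scale, short lines are list medians, and the dashed line is the median of all genes (0.25). The 10 genes have the highest list median (1.54), and the desmosome list follows (0.68). Genes and lists were chosen with earlier results of these data known, so this order is a description only.

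Markers of cell types moved in the same comparison, in which 19.6% of all genes were called higher and 4.37% lower. All 7 genes listed as markers of injured proximal tubule were called higher, with a summed level of 130.2 to 252.1 TPM in wild-type and 1201 to 1716 TPM in FAN1KO cisplatin kidneys. Among them Krt8, a keratin of simple epithelia, was at 83.9 to 90.4 TPM and rose to 258.1 to 409.2 TPM. Krt8 was also at 75.1 to 90.1 TPM in wild-type saline kidneys, and whole-kidney RNA does not show which cells made the RNA of these 7 genes. Of 6 principal cell markers, the collecting duct cells in which Cldn3, Cldn4 and Cldn7 are known, 4 were called higher, and their sum was 412.9 to 813.6 TPM in wild-type and 1211 to 1818 TPM in FAN1KO cisplatin kidneys. For thick ascending limb 0 of 4 and for intercalated cells 0 of 5 markers were called by limma, with sums that overlapped for the first (1098 to 2577 and 1538 to 1903 TPM) and for the second (159.1 to 283.2 and 245.2 to 347.2 TPM). Of 4 distal convoluted tubule markers 2 were called lower, with sums of 688.4 to 1198 and 362.3 to 846.2 TPM. The 5 urothelial markers were low, with a sum of 0.768 to 2.00 TPM in wild-type and 2.44 to 4.16 TPM in FAN1KO cisplatin kidneys. The 1 of them with enough RNA to test, Upk1a, a uroplakin, was called higher by 0.72 (limma adjusted p 0.0463). Of 4 macrophage markers 1, Cd68, was called higher, by 1.56 (limma adjusted p 0.0499), with sums of 38.7 to 98.9 TPM in wild-type and 94.3 to 258.7 TPM in FAN1KO cisplatin kidneys. For podocytes, endothelium, fibroblasts and T cells limma called 0 of 4, 4, 5 and 3 markers, and 0 had an unadjusted p under 0.05, as was also so for thick ascending limb and intercalated cells. Of all 14972 genes, 1039 were lower and 4652 higher at an unadjusted limma p under 0.05. The part of these cell types in the values of the claudins and cadherins was not tested.

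For the 10 genes, the genes with the most similar pattern over the 12 libraries were found by the root mean square difference of log2 values after each gene's mean was taken off. For Cldn4 these were Calml3 (0.21), Lgals3 (0.22) and Slc25a24 (0.22), against a spread of 1.25 of Cldn4 itself. For Cldn7 they were St14 (0.15), Ssbp4 (0.16) and Gstm6 (0.16), for Cldn3 Dcdc2a (0.23), Litaf (0.26) and Relb (0.27), and for Cldn1 Adamts1 (0.20), Plac8 (0.23) and Kdelr3 (0.27). Hkdc1 was closest to Cdh2 (0.12), Hivep2 to Cdh1 (0.10), Hoxb9 to Cdh6 (0.26), H2-DMb1 to Epcam (0.17), Arhgap23 to Tjp1 (0.10) and Myo15b to Cldn2 (0.07). Within the 10 genes, Tjp1 and Cdh1 were the closest pair (0.33), followed by Cldn7 and Cdh6 (0.36), Cldn7 and Epcam (0.37) and the neighbours Cldn3 and Cldn4 (0.39). The points are 12 libraries that share groups and depth, and likeness is given as a description.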

How the data were processed

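RNA sequencing of whole kidneys of 12 mice was used, grouped by the labels (3 per group). Levels of 27179 genes, by NCBI Gene number, were deposited as TPM. The build mm10 and limma are named in the submitters' notes, and the aligner, annotation and strand setting are not given in the sources used here. Each library summed to 1000000, no column of values was left out (0), and RefSeq GRCm38.p6 named 25275 genes. The smallest whole reads that fit the steps in the TPM were recovered for all 232991 values above 0 (tolerance 0.02 of a read), which gave 37196407 to 82935965 per library, and served for depth and 1 alternative.

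Testing covered the 14972 genes that reached 1 TPM in 3 or more libraries, as log2(TPM + 1). The 4 group means were fitted jointly over the 12 libraries by limma 3.58.1 (R 4.3.3) with a mean-variance trend, with Benjamini-Hochberg adjustment over all genes tested and a threshold of 0.05. The labels number 3 replicates in each group, and p-values measure the spread between these libraries. Single genes were compared by the exact two-sided permutation test (smallest p 0.1). All 10 genes were named, and from each related list at most the 4 called genes of largest change, plus those needed beside a result. The genes and lists were chosen with earlier results of these data known. Alternatives were a pseudocount of 0.1, no filter, only the libraries compared, median-ratio scaling, the replicate number as a block, no trend, a Y-linked covariate, 15 mitochondrially encoded genes left out and each library left out. Added after the data were seen were voom on recovered reads, and only the 8 libraries without Y-linked RNA. Scripts were tested on simulated data. Python 3.11.15, numpy 2.4.6, pandas 2.3.3, scipy 1.17.1 and matplotlib 3.10.9 were used.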

Additional observations from a re-analysis of the deposited data

Results flagged for a closer look

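For 3 of the 10 genes the response to cisplatin differed between FAN1KO and wild-type mice by the interaction term of limma, beside 6.24% of all genes. Cldn3 differed by 2.82 (2.817 before rounding), Cldn4 by 2.23 (2.232) and Cdh2 by 1.25 (1.254), each on the log2(TPM + 1) scale and larger in FAN1KO mice, with adjusted p of 0.0206, 0.0196 and 0.0392. In the 8 libraries without Y-linked RNA these 3 and Cldn1, Cldn7 and Cdh1 were called, beside 13.4% of all genes called higher.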

How the results depend on the processing

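Cldn3, Cldn4, Cldn1 and Cdh2 were called higher in FAN1KO than in wild-type kidneys under cisplatin in each of 10 alternatives, and Cldn3, Cldn4 and Cdh2 also without each of the 6 cisplatin libraries in turn. With 1 library left out, the count of the 10 genes called ran from 3 to 6 in that comparison. It was 3 without wild-type cisplatin replicate 1 or FAN1KO cisplatin replicate 1. The count ran from 5 to 7 for cisplatin against saline in FAN1KO mice and from 0 to 4 for the interaction. In the remaining 2 comparisons it stayed at 0. Over all 14972 genes, higher calls in the fits of the first 3 comparisons ran from 1169 to 2943, 3140 to 5391 and 217 to 981. Between saline genotypes they ran from 22 to 38, with 19 to 41 lower. Between treatments in wild-type mice they ran from 0 to 41, with 0 lower. With so few calls over all genes, the counts of 0 in these 2 comparisons say little about the 10 genes. The interaction count moved from 3 to 8 with a Y-linked covariate and to 6 in the 8 libraries without Y-linked RNA, with fewer libraries in the latter; the cause of the former was not tested. For Tjp1 the interaction, 0.25, changed sign to -0.061 with median-ratio scaling, -0.11 without FAN1KO saline replicate 1 and -0.04 without wild-type cisplatin replicate 1, never past the threshold, and ran from -0.11 to 0.59 without 1 library. Over the 5 claudins Cldn1, Cldn2, Cldn3, Cldn4 and Cldn7 alone, a smaller denominator, Cldn2 held 70.6% in wild-type and 36.3% in FAN1KO cisplatin kidneys, and Cldn4 10.2% and 27.4%. Between genotypes under cisplatin, lower and higher calls over all genes were 654 and 2931; they were 1155 and 1389 with median-ratio scaling, 743 and 1829 without mitochondrially encoded genes, 454 and 1721 with only the libraries compared, 1162 and 4328 in the 8 libraries and 1288 and 6035 with the Y-linked covariate.

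Same-numbered libraries are different mice. The mean correlation of their deviations from the group means was -0.24, -0.21, -0.14 and -0.18 in 4 comparisons. For replicate 2 alone it was 0.13, 0.51, 0.25 and 0.60. In each comparison the library with Y-linked RNA was replicate 1 in 1 group and replicate 3 in the other. The mean correlations thus cannot decide whether the numbers pair libraries. With the replicate block 6 genes were called between genotypes under cisplatin, 7 for cisplatin in FAN1KO mice (Epcam added), 2 for the interaction and 0 in the others. For the first 3 of these, 2376, 4798 and 351 of all 14972 genes were called higher with the block. Of the single-gene values under all alternatives, 678 kept direction and side of the threshold, 99 lost and 22 gained a call and 3 changed sign. Depth limits Cdh6 (44 reads at least) and Cdh2 (98 at least) most.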
